A study of Homo sapiens with 2 samples.

Results

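PABPC1 ChIP-seq in RWPE-ERG cells gave 1481 listed peaks, and 296 of them, on chromosomes 1 to 22 and X, were strong or broad. A strong peak held at least 6 ChIP tags at its summit, and a broad peak spanned at least 400 bp. Both values were measured in the same library, so tags, length and the scores that follow from them describe how the peaks were chosen and are not findings. The peaks made up 21.2% of the 1398 RWPE-ERG peaks on these chromosomes, and the other 1102 peaks there serve as the comparison.

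RWPE1 is an immortalized human prostate epithelial cell line. RWPE-ERG cells were transduced to express ERG, and RWPE-empty vector cells carried the same kind of vector without an insert, so each condition is 1 line. Chromatin was recovered with an antibody to PABPC1, 3 ChIP experiments were pooled into 1 library per condition, and an input library of the same cells, made without the antibody, was the background. The RWPE-ERG ChIP library held 2366623 tags of 83 bp and its input 9746026 tags, while the RWPE-empty vector ChIP library held 38648756 tags and its input 15751557. There was no replicate, so no test compared the conditions, and each share is given with its 95% Wilson interval, which covers counting error only.

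PABPC1 is a poly(A)-binding protein best known in the cytoplasm, where it coats the tails of mRNAs and aids translation. ERG is an ETS transcription factor that binds DNA around the core GGAA and is commonly overexpressed in prostate cancer through a fusion of its gene with TMPRSS2. Consecutive copies of GGAA form microsatellites that FLI1 and ERG fusions of EWS bind in Ewing sarcoma. Tandem repeats in general are runs of a short unit copied head to tail. They are frequent near telomeres and centromeres, and the reference genome often holds fewer or more copies than a given cell.

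The sequences below come from 3 of the strong or broad peaks, and they are shown because many of the strong or broad peaks held repeated units. All are on the plus strand of hg19, 5′ to 3′. In the first and second, every other unit of the repeat is in capitals. In the third, capitals change every 39 bases, the commonest unit length, and some units differ in length, so the capitals do not follow every unit. The chromosome 4 array (chr4:190155011-190155214) repeats a unit of 34 bp. The array in OPRL1, a gene for an opioid-related receptor (chr20:62719954-62720073), repeats 20 bp. The array beside IRF4, a gene for a lymphoid transcription factor (chr6:371817-372011), repeats 39 bp.
Chromosome 4 array: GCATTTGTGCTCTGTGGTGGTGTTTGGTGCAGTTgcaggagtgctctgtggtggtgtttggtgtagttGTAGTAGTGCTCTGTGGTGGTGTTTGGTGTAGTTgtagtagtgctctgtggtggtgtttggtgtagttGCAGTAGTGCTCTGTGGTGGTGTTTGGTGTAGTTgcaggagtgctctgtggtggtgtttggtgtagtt
OPRL1 intron: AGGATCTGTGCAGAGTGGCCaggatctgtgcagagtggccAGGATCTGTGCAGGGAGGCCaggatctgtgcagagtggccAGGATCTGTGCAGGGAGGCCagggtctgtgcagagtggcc
Array beside IRF4: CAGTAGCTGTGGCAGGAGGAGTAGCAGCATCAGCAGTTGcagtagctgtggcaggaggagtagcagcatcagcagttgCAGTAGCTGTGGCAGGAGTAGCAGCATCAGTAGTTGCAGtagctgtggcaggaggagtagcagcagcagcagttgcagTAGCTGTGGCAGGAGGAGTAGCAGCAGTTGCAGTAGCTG

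Further peaks consisted of short units. In the next set capitals mark AAAGGAG in ADAP1, a gene for an ArfGAP protein (chr7:945148-945287), and adjoining copies of AAG, read here as CTT, in an intron of RAB3GAP1, a gene for a subunit of a RAB3 GTPase regulator (chr2:135875036-135875155).
ADAP1: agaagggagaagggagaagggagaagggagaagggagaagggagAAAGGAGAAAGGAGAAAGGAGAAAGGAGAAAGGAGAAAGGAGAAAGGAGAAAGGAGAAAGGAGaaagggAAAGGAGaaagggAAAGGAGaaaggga
RAB3GAP1 intron: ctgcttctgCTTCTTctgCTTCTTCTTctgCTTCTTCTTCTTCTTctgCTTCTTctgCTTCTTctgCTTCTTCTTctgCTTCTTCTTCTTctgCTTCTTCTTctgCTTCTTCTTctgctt

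Of the 296 peaks, 119 were chosen by tags alone, 107 by length alone and 70 by both. The median was 6 tags, with a range from 3 to 126, and 417 bp, with a range from 299 to 1684 bp. Together they covered 131595 bp. The shortest length, 299 bp, was the fragment length that the peak caller MACS2 used for RWPE-ERG cells. Of the other RWPE-ERG peaks, 920 (83.5%) had this length. For RWPE-empty vector cells the fragment length was 85 bp, so peak lengths do not compare between the lists. Most of the 296 peaks were near the limit in tags. There were 107 peaks with 3 to 5 tags, 110 with 6, 57 with 7 to 9, 16 with 10 to 19 and 6 with 20 or more. Just inside the limits lay 85 peaks with 6 tags and under 400 bp, with a median -log10 p of 6.70, and just outside lay 421 with 5 tags and under 400 bp, with a median of 6.25. Among peaks with fewer than 6 tags, 15 were less than 10 bp above the limit of 400 bp, with a median -log10 p of 5.08, and 14 were up to 10 bp below it, with a median of 5.22. By q, 199 of the peaks were at or below 0.05 (67.2%), beside 36.9% of all RWPE-ERG peaks, a score that comes from the same tags that chose them.

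**Figure D1:**
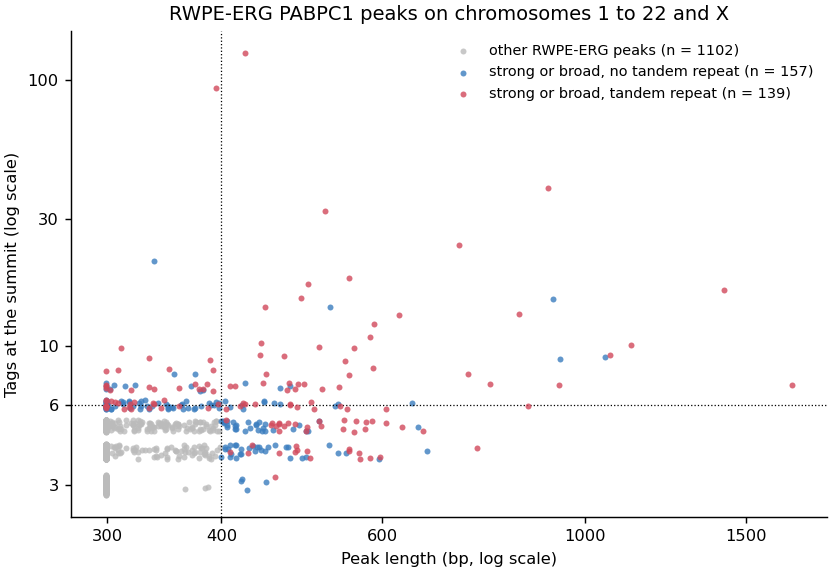
Tags at the summit against peak length in bp, both on log scales, for each RWPE-ERG peak on chromosomes 1 to 22 and X, with dotted lines at 6 tags and 400 bp and points spread slightly in the vertical. Red points are strong or broad peaks with a tandem repeat (139), blue points those without one (157) and grey points the other 1102 peaks; the red points take most of the upper right.

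A tandem repeat of at least 30 bp lay in 139 of the 296 peaks (47.0%, 41.3 to 52.6%). The other RWPE-ERG peaks held one in 204 of 1102 (18.5%, 16.3 to 20.9%) and the RWPE-empty vector peaks in 43 of 362 (11.9%, 8.94 to 15.6%). In windows of the same width 10 kb to each side of the strong or broad peaks, without 2 that would have passed a chromosome's end, the share was 69 of 590 (11.7%, 9.35 to 14.5%), so the repeats were at the peaks more often than in the sequence around them. The same held for the other RWPE-ERG peaks, whose own windows held a repeat in 138 of 2204 (6.26%, 5.32 to 7.35%). A longer peak has more room for a repeat. Within an equal 300 bp at the summit, the shares were 44.3% of strong or broad, 18.9% of other RWPE-ERG and 16.02% of RWPE-empty vector peaks. The intervals of the strong or broad peaks did not overlap those of any other set in either comparison.

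All classes of repeat contributed. Units of 1 to 6 bp, or microsatellites, were the longest repeat in 22 of the peaks (7.43%), against 3.99% of the other RWPE-ERG peaks and 3.56% of the windows. Units of 7 to 60 bp, the range of minisatellites, were found in 86 (29.1%), against 11.98% and 6.61%. Units of 61 to 200 bp were found in 31 (10.5%), against 2.54% and 1.53%. By the unit that gave the longest stretch, 7 to 60 bp was thus the most frequent class. An imperfect repeat of a short unit could be counted under a longer one. The peak at chr2:33141465-33141859, a run of mostly G, was counted with a unit of 40 bp. A peak in the chromosome 4 array of 34 bp units, chr4:190156035-190156586, was counted with 102 bp. Over whole peaks, which differ in length, units counted as 61 to 200 bp had the largest ratio to the other RWPE-ERG peaks. The part of this counting in the classes was not tested. The surroundings differed in long units too, at 1.53% of these windows and 0.272% of the windows beside the other RWPE-ERG peaks. The microsatellite intervals of the strong or broad peaks (4.96 to 10.996%) and of the other peaks (2.99 to 5.32%) overlapped. Where there was a repeat, it was a median of 167 bp long, from 34 to 1651 bp, against 103.5 bp in the other RWPE-ERG peaks. Those peaks were at most 399 bp long, which limits a repeat within them, so this difference partly follows from the choice by length. The repeat filled at least 50% of the peak in 61 strong or broad peaks (20.6%), against 6.72% of the others. The summit lay inside the repeat in 75 of the 139.

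**Figure D2:**
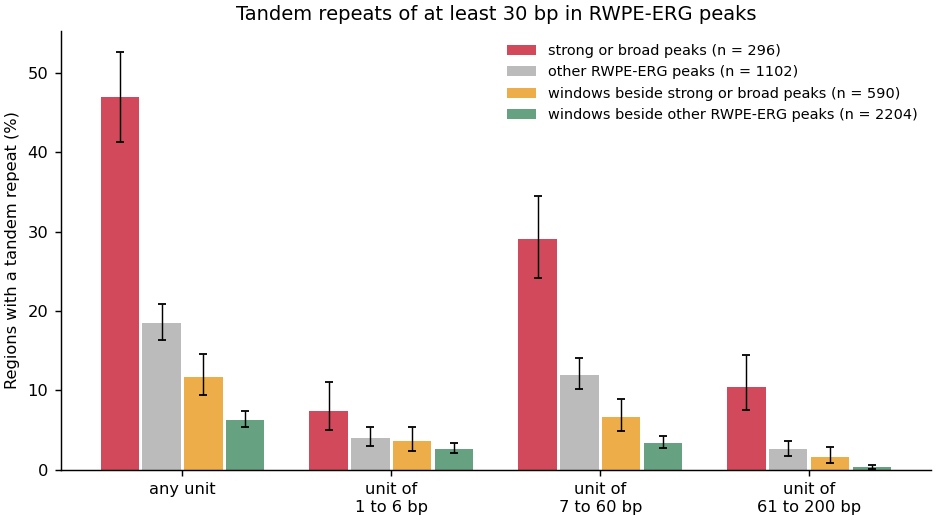
Percent of regions with a tandem repeat of at least 30 bp, for any unit and by unit length, in strong or broad RWPE-ERG peaks (296), other RWPE-ERG peaks (1102) and windows of the same widths 10 kb from each; bars are shares and error bars 95% Wilson intervals. For any unit the strong or broad peaks stand at 47.0%, the other peaks at 18.5% and the windows beside the strong or broad peaks at 11.7%.

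Shares with a repeat are given by tags as a description, since tags chose the peaks. Measured in 300 bp at the summit, it was 10.8% of the other RWPE-ERG peaks with 3 tags, 16.2% with 4 and 24.5% with 5. Of the strong or broad peaks it was 33.6% with 3 to 5 tags, 34.5% with 6, 70.2% with 7 to 9, 75% with 10 to 19 and 83.3% with 20 or more, where only 6 peaks stood. Each of the 10 peaks with the highest -log10 p held a repeat. Of the 22 peaks with 10 or more tags, 3 held none. At the limits, counted over whole peaks, a repeat lay in 29.4% of the 85 peaks with 6 tags and under 400 bp. It lay in 24.7% of the 421 with 5 tags and under 400 bp. Among peaks with fewer than 6 tags, 2 of the 15 just above 400 bp and 4 of the 14 just below held one.

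**Figure D3:**
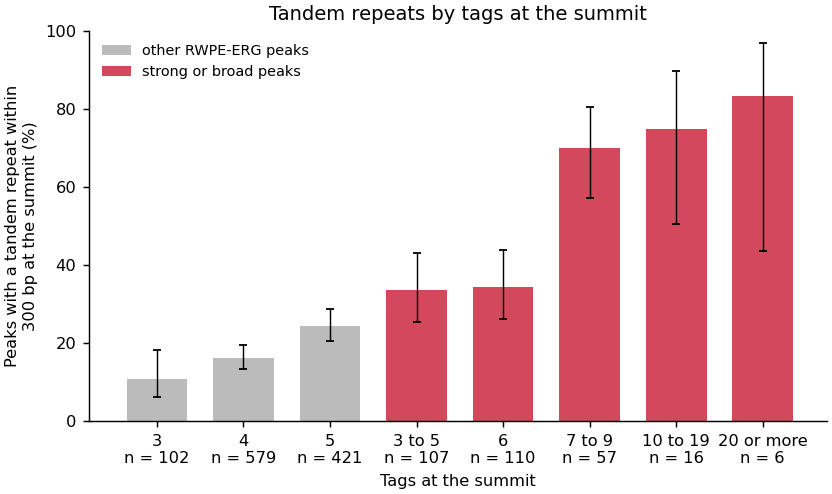
Percent of RWPE-ERG peaks with a tandem repeat of at least 30 bp within 300 bp at the summit, by the number of tags at the summit; grey bars are other peaks, red bars strong or broad peaks, error bars are 95% Wilson intervals and n is the number of peaks. The share stands at 10.8% at 3 tags, 34.5% at 6 tags and 70.2% at 7 to 9 tags.

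The peak with the highest -log10 p, chr4:190154546-190155455, held 39 tags with a fold enrichment of 14.8 over the local input, and 851 of its 910 bp were the array of 34 bp units printed above. It lay between genes, 999 kb from the end of the long arm. A further 2 strong or broad peaks with 10 and 18 tags followed, the 3 together spanning 2.04 kb, and both consisted of the same kind of unit along their whole length. The repeat on chromosome 10 (chr10:130262547-130263035, 15 tags, -log10 p 15.8) also had a unit of 34 bp, over 113 bp, and lay 338 kb from MKI67, the gene for a proliferation marker. The peak in OPRL1 (chr20:62719752-62720262) held 10 tags at a -log10 p of 14.1, with an array of 309 bp in an intron. The peak at chr4:167501071-167501798 held 24 tags in an array of 675 bp, 522 kb from SPOCK3, a gene for an extracellular proteoglycan. The units of these arrays differed from one another. The peak at chr8:86804061-86804642 (11 tags, -log10 p 11.7) held 407 bp of repeat, and its 83-base sequences had a median of 9 copies in the reference.

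Among the short units, the peak at chr12:95221-95553 held 323 bp of a unit of 6 bp, 95.4 kb from the chromosome's end, with 9 tags and a -log10 p of 12.5. The longest of all the peaks, chr5:9968-11651, spanned 1684 bp with 7 tags. A unit of 6 bp ran over 1651 bp of it at the start of chromosome 5, and its 83-base sequences occurred a median of 356 times in the reference. In ADAP1 a peak with 9 tags (chr7:945014-945481) and one with 7 (chr7:945587-946030) both held arrays led by the unit AAAGGAG, of 388 and 364 bp. The peak in RAB3GAP1 (chr2:135874841-135875386, 9 tags, -log10 p 11.5) held an imperfect array of 401 bp led by AAG. Of the 22 peaks led by a unit of 1 to 6 bp, 8 had AAAG, against 4 of the 1102 other RWPE-ERG peaks, and 3 had AC, against 11.

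Length and tags did not go together at every site. The peak at chr6:371115-372179, 20.1 kb from IRF4, spanned 1065 bp at 9 tags, and its array of 39 bp units took up 1056 bp. At chr9:109789203-109790325, 18.3 kb from ZNF462, a zinc finger gene, 1123 bp held 10 tags and an array of 764 bp. The peak at chr1:148849050-148850467, 110 kb from NBPF16, one of a family of duplicated genes, spanned 1418 bp with 16 tags, and only 210 bp of it were a repeat. A peak at chr17:21903936-21904985, in an exon of a pseudogene, spanned 1050 bp with 9 tags and held no repeat of 30 bp. These, with the chromosome 5 end, were the 5 longest, and 4 of the 5 held a repeat.

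High tag numbers also occurred at low fold enrichment. MACS2 derives a local background from the input, and over the genome the RWPE-ERG background was 0.262 tags. The peak in an intron of SH3RF3 (chr2:109815721-109816145), a gene for a ubiquitin ligase, held the most tags, 126, at a fold enrichment of 1.87, with input at 255 times that background. The peak at chr2:33141465-33141859, in an intron of LINC00486, held 93 tags at a fold of 2.89, with input at 120 times the background. It ran into an assembly gap, and its 228 known bases had a GC content of 97.4%. Both held a repeat, an array led by AATGG over 359 bp and a run of mostly G over those 228 bp. Of all strong or broad peaks, 63 (21.3%) had input of at least 2 times the genome-wide background, and at 83 (28.04%) it was within 1% of the genome-wide value. Of the other RWPE-ERG peaks, 15 (1.36%) had input of at least 2 times the background, and 529 (48.0%) were within 1%. The other peaks held at most 5 tags and had to pass the p cut-off, which limits their input, at most 3.71 times the background. Input was also solved from the tags and the fold enrichment, so this difference partly follows from the choice by tags and is only a description. Among the strong or broad peaks, input of at least 2 times the background was found at 38 of the 139 with a repeat (27.3%) and at 25 of the 157 without one (15.9%). The part of raised input in the tag numbers was not tested. The sequence at the SH3RF3 summit (chr2:109815960-109816059) is given with GGAAT in capitals; GGAAT is the unit of a human satellite DNA and contains GGAA once, and the peak held 69 GGAA.
SH3RF3 intron: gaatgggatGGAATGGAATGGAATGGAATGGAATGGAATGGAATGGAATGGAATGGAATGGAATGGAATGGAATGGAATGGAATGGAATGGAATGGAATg

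Exact copies elsewhere in the reference can change what a peak means, since a tag from one copy may be placed at another. Sequences of 83 bases, the tag length, were counted along each peak on both strands. In 192 peaks (64.9%) each such sequence occurred once in the assembled genome, and in 10 each occurred more than once. In 40 peaks (13.5%, 10.1 to 17.9%) at least 50% of them had another copy, against 6.90% of the other RWPE-ERG peaks, 6.63% of RWPE-empty vector peaks and 10.7% (8.44 to 13.4%) of the windows 10 kb away. The share thus lay above that of other peaks and overlapped that of the sequence around. Of the 40, 31 held a tandem repeat, and of the other 256 peaks, 108 did. How the aligner placed reads with several matches is not given in the sources used here.

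When strong or broad peaks at most 50 kb from the next were joined, 5 groups of 3 or more formed, and these held 21 of them. Another 26 stood in 13 pairs and 249 were single. One of the larger groups, of 6 peaks, lay in or beside the array of 5S ribosomal RNA genes on chromosome 1 (chr1:228744164-228781636). The 5S RNA is a part of the large ribosomal subunit, transcribed by RNA polymerase III from clustered gene copies. The annotation holds 17 genes of 119 bp there, all on the minus strand, with starts a median of 2241 bp apart (2215 to 2242 bp). None of the 6 peaks overlapped a 5S gene. Their tags were 7, 7, 6, 6, 6 and 4, and the summits fell in the spacers or beside the array. From the gene whose 3′ side they faced, the summits lay 1565, 1545 and 1623 bp away in 3 of them and 606, 337 and 365 bp away in the other 3. Of the first 3, those at 1545 and 1623 bp were nearer to the next gene, 577 and 500 bp upstream of its start. A further 4 RWPE-ERG peaks with 4 or 5 tags lay in the same array, in spacers, and no RWPE-empty vector peak did. The 83-base sequences of the 6 peaks occurred a median of 15 or 16 times in the reference. In 5 of the 6 all of these sequences occurred more than once, and in the sixth, at chr1:228756646-228757090, 67.2% did. A CA-rich stretch near the summit of a peak beside the array (chr1:228744477-228744626) is given with runs of at least 3 CA or TG in capitals.
Beside the 5S array: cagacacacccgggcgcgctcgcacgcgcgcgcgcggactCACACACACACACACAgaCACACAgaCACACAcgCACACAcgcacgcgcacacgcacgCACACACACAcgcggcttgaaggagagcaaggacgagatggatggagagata

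**Figure D4:**
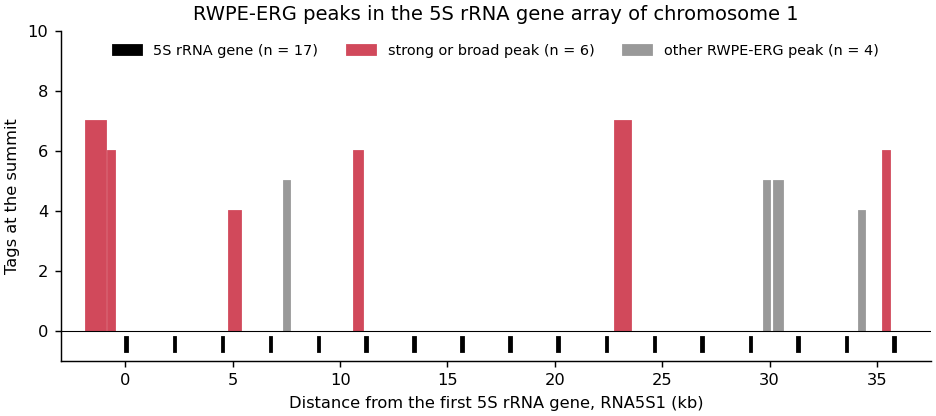
RWPE-ERG peaks along the 5S ribosomal RNA gene array of chromosome 1, as distance in kb from RNA5S1, with black marks for the 17 genes and boxes whose width is the peak and whose height is the tags at its summit; red boxes are strong or broad peaks (6), grey boxes the other RWPE-ERG peaks (4). All 10 boxes stand between the genes or beside the array, at 4 to 7 tags.

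The other group of 6 lay at chr2:87587789-87642387, 26.1 to 80.1 kb from an assembly gap, with 6 to 13 tags, and all 6 held a repeat. Groups of 3 lay at chr2:133014531-133062673, at and near ANKRD30BL, with 6 to 8 tags, at chr21:11109930-11142957, with 6 to 10 tags, and in the chromosome 4 array above. The sequence GAAATG or its complement was part of the repeat in 17 strong or broad peaks on 7 chromosomes (5.74%, 3.62 to 9.004%), among them 4 of the 6 on chromosome 2, against 7 of the other RWPE-ERG peaks (0.635%), 2 RWPE-empty vector peaks and 0 of the 590 windows (0 to 0.647%). This sequence was picked after the repeats had been read, so the counts only describe it. The 17 peaks held 4 to 16 tags with a median of 7, their input stood at a median of 2.27 times the genome-wide background, and 11 were within 1 Mb of an assembly gap. The GC content of 14 of them was 26.6 to 33.3%. On chromosome 16, the peak at chr16:32816962-32817808 (13 tags) begins with the array below (chr16:32816951-32817070), where GAAATG or its complement is in capitals and the first bases lie just outside the peak.
Chromosome 16 array: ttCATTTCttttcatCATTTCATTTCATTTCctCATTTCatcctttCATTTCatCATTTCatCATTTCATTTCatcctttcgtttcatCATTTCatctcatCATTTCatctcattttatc

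Within 1 Mb of a chromosome's end lay 24 of the 296 (8.11%, 5.51 to 11.8%), against 3.36% (2.45 to 4.59%) of the other RWPE-ERG peaks and 7.29% (5.46 to 9.67%) of the windows 10 kb from the strong or broad peaks, which share their position. Of the 24, 19 held a tandem repeat. With assembly gaps included, 83 (28.04%) were within 1 Mb, against 18.9%. The same windows stood at 27.3%. One such peak, at chr4:190942646-190943583, overlapped an exon of the pseudogene DUX4L9, a copy of the DUX4 repeat near the end of the long arm, with 9 tags, a length of 938 bp and a GC content of 73.6%. It was named after its values were seen. Its CpG-rich sequence (chr4:190943152-190943301) is given with CG in capitals.
DUX4L9: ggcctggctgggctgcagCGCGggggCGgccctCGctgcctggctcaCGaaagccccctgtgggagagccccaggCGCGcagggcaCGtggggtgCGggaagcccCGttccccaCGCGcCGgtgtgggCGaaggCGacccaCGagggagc

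By chromosome, the strong or broad peaks numbered 10.4 per 100 Mb of assembled sequence. Chromosome 20 held 43.7 per 100 Mb, chromosome 9 held 23.3 and chromosome 16 held 21.6, while chromosome 3 held 2.57, chromosome X 0.662 and chromosome 22 none. The other RWPE-ERG peaks had the same leading chromosomes, with 146 per 100 Mb on chromosome 20 and 78.2 on chromosome 9. The 5 chromosomes with the most strong or broad peaks held 48.3% of them and 44.01% of the others, on 28.9% of the assembled sequence. The unevenness between chromosomes thus belonged to the whole RWPE-ERG list. Copy number of the chromosomes in these cells was not tested.

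**Figure D5:**
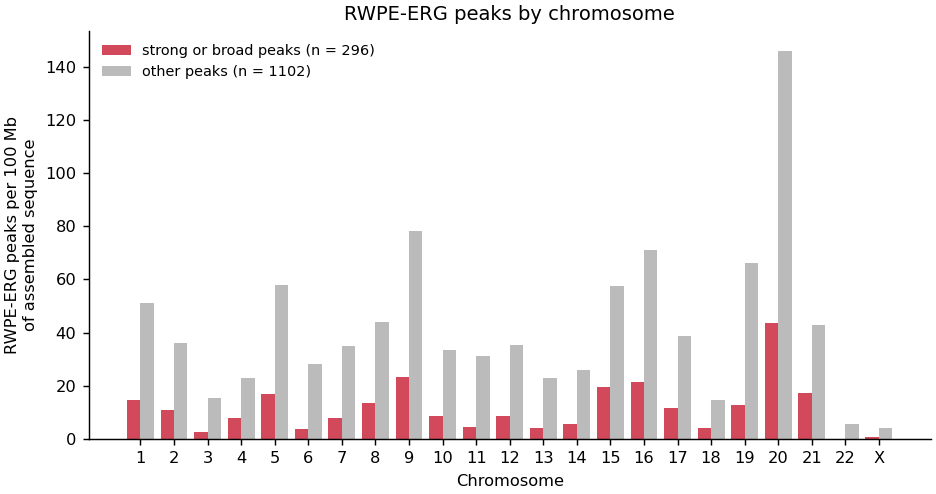
RWPE-ERG peaks per 100 Mb of assembled sequence on each chromosome, with red bars for the 296 strong or broad peaks and grey bars for the other 1102 peaks. Chromosome 20 stands highest in both, at 43.7 and 146 per 100 Mb.

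Few of the strong or broad peaks lay at starts of genes. The start of any gene was within 1 kb of the midpoint in 28 (9.46%, 6.63 to 13.3%), against 10.3% of the other RWPE-ERG peaks and 8.14% of the windows. Starts of protein-coding genes were that near in 12 (4.05%), against 5.81% and 2.20%. Introns held 48.6% of the peaks and 48.3% of the windows, intergenic sequence 46.3% and 45.8%, and exons 5.07% and 5.93%, so in these classes the peaks resembled their surroundings. Each peak was given a single class, and some counted in introns also overlapped an exon. The other RWPE-ERG peaks were more often in introns (55.9%), as were their own windows (55.9%).

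The 12 peaks at protein-coding starts belonged to 11 genes. ADAP1 had 2, one with its midpoint 6 bp from a start. SNX16, which encodes a sorting nexin of endosomes, had a peak of 9 tags 199 bp away. With 6 tags each came RHBDF1, an inactive rhomboid protein gene (143 bp), IL16, a cytokine gene (172 bp), ATP6V0A2, a subunit of the proton pump of acidic vesicles (382 bp), ANKRD30BL (859 bp) and VSIR, an immune checkpoint gene (873 bp). With 5 tags each came EBI3, a cytokine subunit gene (819 bp), EDDM13 (448 bp), RPTOR, the gene for the raptor subunit of the growth regulator mTORC1 (748 bp), and ST6GALNAC2, a sialyltransferase gene (772 bp). The peaks of ADAP1, SNX16, EBI3, EDDM13 and RPTOR held a tandem repeat, and in RPTOR it ran through all 514 bp. The other 6 genes had peaks without one. The peak at IL16 was counted in an intron and also overlapped an exon of that gene. In its sequence, shown as an example without a repeat (chr15:81594513-81594662), GGAA or its complement is in capitals.
IL16 intron: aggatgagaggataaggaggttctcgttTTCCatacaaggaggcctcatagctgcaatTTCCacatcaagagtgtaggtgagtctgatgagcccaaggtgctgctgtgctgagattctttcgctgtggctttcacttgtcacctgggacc

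Gene lists taken from the study's subject were counted among the nearest genes of these peaks and of the other RWPE-ERG peaks. The nearest protein-coding gene was none of 27 ETS family genes, none of 11 genes for poly(A)-binding and FET proteins (the family of EWS) and none of the 3 ERG target genes that the study assayed, and each of these lists was nearest to 1 of the other 1102 peaks (0.0907%). Of 25 regulators of hematopoietic progenitors, PRDM16, a zinc finger transcription factor gene, was nearest to 1 peak (0.338%), with 5 tags and 2.59 kb away, and the list was nearest to 0.272% of the other peaks. Of 28 genes of migration and invasion, the cadherin genes CDH4 and CDH11 were nearest to 3 peaks and 1 peak. The CDH4 peaks lay in its introns and held 5, 6 and 6 tags, at 36.4 to 125 kb from a start. The CDH11 peak held 7 tags and lay 339.8 kb from that gene, in an intron of the noncoding RNA gene LINC00922. The migration and invasion list was nearest to 1.35% of the strong or broad peaks and 1.27% of the other RWPE-ERG peaks. In all, 251 protein-coding genes were nearest to one of the peaks, 221 of them to a single one, and 84 of the 251 were also nearest to another RWPE-ERG peak.

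The motifs named by the study were counted on both strands. GGAA, the ETS core, occurred in 223 of the 296 peaks (75.3%, 70.1 to 79.9%) and in 94.6% (92.4 to 96.1%) of the windows of the same widths. Per kb it occurred 9.73 times in the peaks and 9.58 times in the windows, with 10.01 in the other RWPE-ERG peaks and 13.7 in RWPE-empty vector peaks. The occurrences were spread unevenly over the peaks, and the 10 peaks with the most held 373 of 1278 (29.2%). Of the 73 peaks without any, 59 held a tandem repeat. Because lengths differ between lists, shares of whole peaks do not compare the lists, and rates per kb or shares within an equal width do. Within 300 bp at the summit, GGAA occurred in 70.9% (65.5 to 75.8%) of the strong or broad peaks. It occurred there in 83.1% (80.8 to 85.2%) of the other RWPE-ERG peaks and 93.4% of RWPE-empty vector peaks.

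GGAA in tandem, the form used in the study's reporter, was found in few peaks. At least 3 adjoining copies occurred in 9 (3.04%, 1.61 to 5.68%), against 12 of the other RWPE-ERG peaks (1.09%, 0.624 to 1.89%), 6 RWPE-empty vector peaks (1.66%) and 1 of the 590 windows (0.169%, 0.0299 to 0.954%). Per kb of sequence, such regions numbered 0.0685 in the strong or broad peaks, 0.0355 in the other RWPE-ERG peaks, 0.0926 in RWPE-empty vector peaks and 0.00385 in the windows, so by length the RWPE-empty vector peaks stood above the strong or broad peaks. Among the 9 were peaks in an intron of CACNA1A (chr19:13715287-13715824, 7 tags), at chr1:149028733-149029319 (12 tags), chr2:91986837-91987580 (8 tags), 118 kb from GALNT17 (chr7:70478484-70478789, 6 tags), 82.8 kb from RGS3 (chr9:116440377-116440801, 6 tags), 449 kb from TLE4 (chr9:81737219-81737536, 6 tags) and 11.7 kb from PHIP (chr6:79799488-79799949, 5 tags). CACNA1A encodes a calcium channel subunit, and RGS3 a regulator of G-protein signalling. None of the 9 peaks held more than 4 adjoining copies. In 7 of the 9 the longest array had the unit AAAG. The sequences around the longest run, with each GGAA or TTCC in capitals, show single and adjoining copies mixed with AAAG (chr9:116440695-116440814 and chr19:13715528-13715647); the first reaches a few bases beyond the peak.
Near RGS3: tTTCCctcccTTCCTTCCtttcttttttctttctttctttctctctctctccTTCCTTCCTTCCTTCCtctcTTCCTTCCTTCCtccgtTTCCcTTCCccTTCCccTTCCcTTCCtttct
CACNA1A intron: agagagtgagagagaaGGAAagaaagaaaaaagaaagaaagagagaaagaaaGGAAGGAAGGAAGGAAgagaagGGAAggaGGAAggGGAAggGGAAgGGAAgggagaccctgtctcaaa

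ACGGAT, an ETS motif that contains GGAT in place of GGAA, occurred once in each of 11 peaks (3.72%, 2.09 to 6.53%), against 22 of the other RWPE-ERG peaks (2.00%, 1.32 to 3.004%) and 20 of the windows (3.39%, 2.20 to 5.18%). The rates were 0.0837 per kb in the peaks, 0.0946 in the other RWPE-ERG peaks and 0.0770 in the windows. In RWPE-empty vector peaks the rate was 0.0463 per kb, from 3 peaks. The strong or broad peaks were thus not set apart from the windows by ACGGAT. In an intron of NFATC2, a gene for a transcription factor of lymphocyte activation (chr20:50162280-50162359, 7 tags), it stood among further GGAT in a repeat. This peak was picked as an example after its values were seen. ACGGAT is in capitals, and the stretch reaches beyond the peak.
NFATC2 intron: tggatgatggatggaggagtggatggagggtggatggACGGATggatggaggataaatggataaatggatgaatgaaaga

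The poly(A)-like motif AAAAA occurred in 40.2% (34.8 to 45.9%) of the strong or broad peaks, 74.7% (71.1 to 78.1%) of their windows and 50.8% (47.9 to 53.8%) of the other RWPE-ERG peaks. Its rate was 3.63 per kb in the peaks, 6.99 in the other RWPE-ERG peaks, 11.4 in the windows and 11.5 in RWPE-empty vector peaks. The strong or broad peaks were thus the poorest of these sets in AAAAA. Their median GC content was 48.6%, against 48.97% in the other RWPE-ERG peaks, 43.1% in the windows and 38.8% in RWPE-empty vector peaks. The other RWPE-ERG peaks thus had a similar GC content at a higher AAAAA rate. The part of GC content in the AAAAA rate was not tested. GAAGATC occurred in 9 peaks (3.04%), against 4.24% of windows. GAGNCTGAG, where N is any base, occurred in 28 (9.46%, 6.63 to 13.3%), against 11.7% of windows and 12.3% of the other RWPE-ERG peaks, and in 1 RWPE-empty vector peak. Its rate was 0.228 per kb in the peaks, 0.452 in the other RWPE-ERG peaks, 0.319 in the windows and 0.0154 in RWPE-empty vector peaks. For GAAGATC the rates were 0.0761, 0.0739, 0.108 and 0.170 per kb in the same order. Within 300 bp at the summit, GAGNCTGAG occurred in 6.42% of the strong or broad, 11.8% of the other RWPE-ERG and 2.21% of RWPE-empty vector peaks. Differences between sets in GAAGATC and GAGNCTGAG were not tested. Base composition also varied within the peaks, as the median GC content was 43.2% in those with a tandem repeat and 51.8% in those without.

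RWPE-empty vector peaks were overlapped by 9 of the 296 peaks (3.04%, 1.61 to 5.68%), by at least 1 bp, beside 1.15% of all RWPE-ERG peaks. The other 1102 peaks on these chromosomes included 1 that did (0.0907%). All 9 held at least 6 tags and a tandem repeat. The tags of both cells are given side by side and not compared, since the RWPE-empty vector ChIP library was 16.3 times as deep.

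The repeat near the end of chromosome 12 held 9 tags in RWPE-ERG cells and 27 in RWPE-empty vector cells. In ADAP1, the first peak held 9 and 38 tags, and the second held 7 and overlapped a pair of RWPE-empty vector peaks of 23 and 30. The array led by AAG in RAB3GAP1 held 9 and 30. All of these sites had a low input, at 1.00 to 1.27 times the genome-wide background in RWPE-ERG cells. Near ANKRD30BL, the peak at chr2:133028123-133028674 held 8 and 34 tags, in a repeat with a unit of 60 bp. The other 4 lay where input was raised. These were chr1:148849050-148850467 (16 and 37 tags), chr16:32816962-32817808 (13 and 46), chr1:149028733-149029319 (12 and 30) and chr2:91986837-91987580 (8 and 17), with input of 8.34, 5.56, 5.56 and 4.63 times the background. No RWPE-empty vector peak overlapped the chromosome 4 array, the OPRL1 array, the array beside IRF4 or the 5S genes, and at these sites a difference between the cells was not tested.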

How the data were processed

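PABPC1 ChIP-seq peak lists of RWPE-ERG and RWPE-empty vector cells (1 library each, hg19) were used. Reads were aligned by the authors with Bowtie2, samtools removed duplicates and bedtools blacklisted regions, and MACS2 2.1.2 called peaks against the input library at a p cut-off of 0.001. The deposited lists give the signal at the summit (the pileup, in whole tags for RWPE-ERG cells), the −log10 p and −log10 q, and a fold enrichment, the ratio of signal to local input after 1 was added to both. Local input was solved from that ratio by the formula of MACS2, and RWPE-empty vector tags by undoing the scaling.

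The strong or broad peaks, gene lists and repeats were chosen with earlier results of these data known. Sequences were read from GRCh37, whose chromosomes 1 to 22 and X match hg19, and genes from GENCODE 44 mapped to it. Of the lists, 1398 RWPE-ERG and 362 RWPE-empty vector peaks lay on these chromosomes. A tandem repeat spanned at least 30 bp, with at least 3 copies of a unit of up to 6 bp or 2 copies of one of 7 to 200 bp. In a test on simulated data 118 of 120 planted repeats of identical copies were found, and none in 200 random sequences of even base composition. The test did not cover imperfect copies or uneven base composition. The sequence file used here carried no repeat marks, so annotated repeat classes were not used. Peaks named were the 10 strongest by −log10 p, the 5 longest, those with the longest repeats, those overlapping a RWPE-empty vector peak, at protein-coding starts, with 3 or more GGAA in tandem or in groups, and those nearest to a gene of a list. Some peaks and sequences covered by this rule are not reported here. Tools were pysam 0.24.0, numba 0.67.0, pandas 2.3.3 and numpy 2.4.6, with scipy 1.17.1 for intervals and matplotlib 3.10.9 for plots, in Python 3.11.15.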

Additional observations from a re-analysis of the deposited data

How the results depend on the processing

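The number of strong or broad peaks depended on the limit in tags. With the limit of 400 bp kept as the alternative, it was 717 at 5 or more tags and 188 at 8 or more. The share with a tandem repeat was 38.5% without peaks within 1 Mb of an assembly gap or chromosome end, a setting added after the data were seen, against 47.0% in all. Exact copies reached 20.3% with sequences of 50 bases, AAAAA 31.8% in 300 bp at the summit, protein-coding starts alone 4.05%, and a gap or end within 200 kb 13.2%. The other 20 alternatives kept shares within the interval and counts within 1.5 times. Among these, the overlap with RWPE-empty vector peaks was 6 instead of 9 when those had a q of at most 0.05. No paired analysis was possible because each condition had 1 library. At 2366623 ChIP tags a listed peak could rest on 3 tags, so tag numbers near 6 carry large counting error, and repeats whose copies differ between these cells and the reference could not be measured.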
